A study of Sus scrofa with 12 samples.

Results

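The RNAs described here were those that the deposited GRID-seq lists of pig skeletal muscle named by an Ensembl gene identifier in place of a gene symbol. GRID-seq joins RNA to the DNA beside it in fixed nuclei and so lists chromatin-associated RNAs (caRNAs) with the DNA they touch. All listed names that begin with ENSSSCG were taken, apart from 3 of them (ENSSSCG00000044834, ENSSSCG00000048037 and ENSSSCG00000048856), which left 129 of 1122 listed RNAs. The 2 LW libraries listed 78 and 95 of the 129 among 571 and 681 RNAs, and the 2 MS libraries 76 and 92 among 519 and 649.

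The series compared longissimus muscle of 2-week-old male piglets of LW, which the labels call a commercial lean pig breed, with that of MS, a Chinese local pig breed. Each breed had 2 GRID-seq libraries and 2 H3K27ac BL-HiChIP libraries, the latter mapping loops between DNA sites with H3K27ac, an acetylation of histone H3 found at working promoters and enhancers. No other treatment, genotype or age was given for either breed. The sources did not state that the 2 libraries of a breed came from separate animals, so every p-value measures only the spread between these libraries, which may be technical.

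An RNA is made at its gene, and most RNA that stays on chromatin is nascent transcript still close to that gene. Noncoding transcripts that host microRNAs, spliced long noncoding RNAs and the unspliced transcripts of long genes are known to remain on chromatin longer than mature messenger RNA. In muscle, the microRNAs miR-1, miR-133 and miR-206 are known regulators of myogenesis, and imprinted genes such as IGF2 and MEG3 are known for their part in fetal growth. Muscle is a mixture of cells, and in such bulk libraries fewer cells of a type and less RNA per cell cannot be told apart. Of 13 muscle markers, 9 were found in every library (ACTA1, MYH7, CKM, TTN, NEB, ATP2A1, TNNT3, MYBPC1 and DES). At ACTA1 the listed RNA was ENSSSCG00000010190, one of the RNAs described here. None of the 3 adipocyte, 2 endothelial, 2 immune, 1 erythroid and 2 neuronal markers was listed in any library. Of the 3 fibroblast markers, COL1A1 and COL3A1 were listed, both of them in 3 libraries and 1 of them in MS replicate 1.

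The identifiers did not stand for one kind of RNA. In the Sscrofa11.1 annotation of RefSeq, 63 of the 129 RNAs shared at least 50% of their length with a coding gene that itself lay at least 50% under the RNA, 29 lay for at least 50% of their length over a coding gene of which they covered less than 50%, and 10 lay only partly over coding genes. A further 20 overlapped only noncoding genes or pseudogenes, 2 had their ends within 5 kb of a gene, and 5 were further away. The RNAs were 0.125 to 304 kb long with a median of 13.7 kb, 65 on the plus strand and 64 on the minus strand. A table of gene names gave a symbol for 29 of the identifiers. For 18 RNAs the listed interval overlapped another listed RNA, on the same strand in 16 cases. In these 16 the reads cannot be told apart from those of the partner.

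The 10 with the highest mean RPM (reads scaled to all listed RNA reads of a library), among those in all 4 libraries, were ENSSSCG00000038561 within TTN, ENSSSCG00000044874, ENSSSCG00000050768, ENSSSCG00000029441 over 3 fast myosin genes, ENSSSCG00000050060 over MIR1 and MIR133A-1, ENSSSCG00000039473 at USP32, ENSSSCG00000024481 (PDE4DIP), ENSSSCG00000044913, ENSSSCG00000010190 (ACTA1) and ENSSSCG00000015747 (MYOM2). Together the 129 RNAs held 901903, 1053272, 726895 and 962598 reads in LW replicates 1 and 2 and MS replicates 1 and 2, which was 11.0%, 10.6%, 10.1% and 10.3% of all listed RNA reads. Values of 4 libraries are given in this order throughout. Per kb of RNA, ENSSSCG00000038561 (chr15:84399016-84416223, minus strand), which lies in TTN, the gene of the giant sarcomere protein titin, had 4440, 4933, 3381 and 4023 reads. The noncoding ENSSSCG00000044913 (chr2:6797359-6803782, minus strand) had 5237, 5756, 4971 and 5950 reads per kb. Both stood far above ENSSSCG00000039473, with 131, 147, 227 and 277 reads per kb over its 215 kb.

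**Figure D1:**
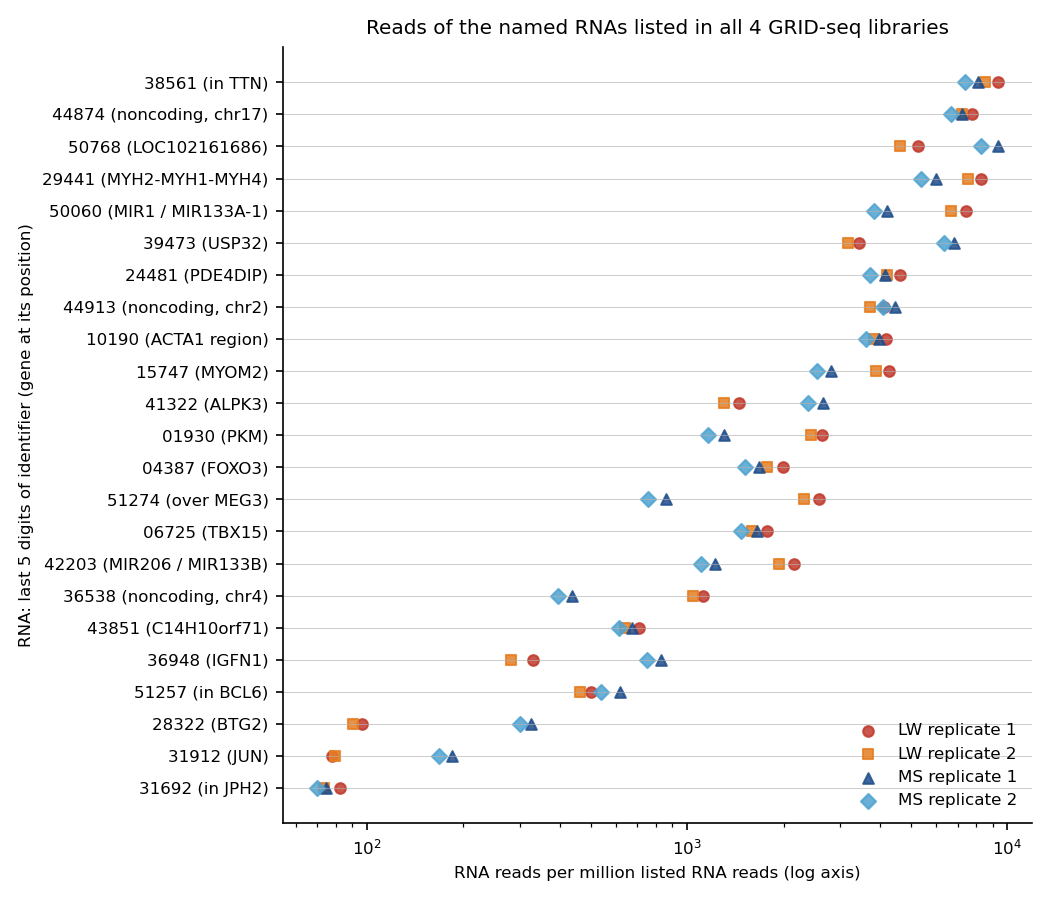
RPM of RNA reads (reads scaled to all listed RNA reads of a library, log axis) of the 23 named RNAs found in all 4 GRID-seq libraries, 1 point per library, red and orange for LW and dark and light blue for MS. The points of a breed lie close together, and for the RNAs over MIR1, MEG3, MIR206, PKM and MYOM2 and the noncoding RNA near DPT both LW points lie right of both MS points.

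Fewer than 1 in 2 of the RNAs were listed throughout, as was the case for all listed RNAs. Counted by name and interval, 308 of all 1122 were in all 4 libraries. Of the 129 RNAs, 48 were listed in all 4 libraries, 18 in 3, 32 in 2 and 31 in 1. The median over RNAs of the mean reads per kb fell from 313 for those in 4 libraries to 154, 118 and 114 for those in 3, 2 and 1. Some RNAs with many reads were in 1 list only. ENSSSCG00000041901, 174 kb long and mostly over noncoding genes beside CCDC112, had 41185 reads in MS replicate 2 and was in no other list. ENSSSCG00000007066 at SLX4IP had 27060 reads in that library only (both chosen after their values were seen). The lists give no reads for an RNA that they leave out, so an RNA missing from a list cannot be read as absent from the muscle. In both LW lists and neither MS list were 17 RNAs, and in both MS lists and neither LW list 13. The same counts over all listed RNAs are not given here.

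Among the RNAs in the LW lists only was ENSSSCG00000035293 (chr2:1469133-1496442, minus strand), which covers IGF2, an imprinted fetal growth factor gene. It had 6234 and 6385 RNA reads in LW, equal to 228 and 234 per kb, and 99.96 and 99.9% of its listed signal lay within 10 kb of it. Of other RNAs in this group with many reads, ENSSSCG00000036669 had 7891 and 8605. It had 22.3% of its length over AHNAK, the gene of a giant membrane scaffold protein. ENSSSCG00000033010, with 88.8% of its length over AHNAK, was in all 4 libraries, with 6890, 7412, 6119 and 7389 reads. ENSSSCG00000048678, which lies partly (74.1%) over ZFAT, had 6739 and 7430 reads, and ENSSSCG00000001064 (GMPR, an enzyme that returns guanine nucleotides to the inosine form) had 5404 and 6059. The intervals of ENSSSCG00000036669 and ENSSSCG00000048678 overlapped those of other listed RNAs on the same strand. These partners, ENSSSCG00000033010 and ENSSSCG00000048702, were listed in MS as well.

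In the MS lists only, ENSSSCG00000014361 (CYSTM1) had the most reads, 8265 and 9823, over an interval that also covers PURA. It was followed by ENSSSCG00000016685 (WIPF3, of an actin regulator) with 7161 and 8573 and by the noncoding ENSSSCG00000050502 near GLUL with 6060 and 7295. ENSSSCG00000007692 at YWHAG, a 14-3-3 protein gene, had 3305 and 3943 reads, and ENSSSCG00000038594 at SDC4, a cell-surface proteoglycan gene, had 2250 and 2644. These 5 RNAs had 63.0 to 139 reads per kb and the 4 described from the LW lists 85.2 to 234, while the lowest values that any listed RNA had were 39.6, 44.1, 38.7 and 37.7.

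The RNAs over MIR1 and MIR133A-1 and over MIR206 and MIR133B had more reads in LW, and the rule named both for the small p of that difference. ENSSSCG00000050060 (chr17:61890966-61933235, plus strand, 42.3 kb), which holds MIR1 and MIR133A-1, had 60522, 66166, 30076 and 36037 reads. Both LW libraries exceeded both MS libraries, and the log2 difference, LW minus MS, was 0.77 ± 0.0081 (SE, adjusted p = 2e-06) in edgeR's quasi-likelihood test with Benjamini-Hochberg adjustment over 308 RNAs. ENSSSCG00000042203 (chr7:45967062-45980798, plus strand, 13.7 kb), which holds MIR206 and MIR133B, had 17684, 19280, 8794 and 10380 reads. The breeds again did not overlap, with a log2 difference of 0.78 ± 0.012 (SE, adjusted p = 2.83e-06). Of the other 3 RNAs over microRNA genes, none of which the naming rule had picked, ENSSSCG00000048702 (MIR30B and MIR30D) was also higher in LW, at 0.43 ± 0.017 (SE, adjusted p = 3.44e-05), while ENSSSCG00000031608 (MIR486-1, within ANK1) was lower in LW, at -0.39 ± 0.027 (SE, adjusted p = 0.00023). ENSSSCG00000036428 (MIR365-1) was listed in MS replicate 1 alone. Over 34.7% of its length ENSSSCG00000048702 overlaps ENSSSCG00000048678 on the same strand, which was in the LW lists only. The reads of these RNAs cannot be told apart there. The deposited counts are of the whole listed interval, and the level of the mature microRNAs was not measured.

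Most of the RNAs that could be tested differed in reads between the breeds, as did most of all listed RNAs tested. Only the 48 RNAs listed in all 4 libraries could be tested. At an adjusted p below 0.05, 26 of them were higher in LW, where 44.2% of all 308 tested RNAs were, and 17 were higher in MS, against 42.5% of all. With a 2-fold difference required as well, 6 of the 48 were higher in LW and 5 in MS, larger shares than the 4.87% and 5.84% of all RNAs, a difference that was not tested. The median log2 difference was 0.088 over the 48 RNAs and -0.0018 over all 308. So many calls came with a very small spread between the libraries of a breed: the log2 ratio of replicate 2 to replicate 1 had an SD of 0.053 over 73 of these RNAs in LW and 0.037 over 71 in MS. With library sizes not adjusted by TMM, the counts were 15 and 10.

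**Figure D2:**
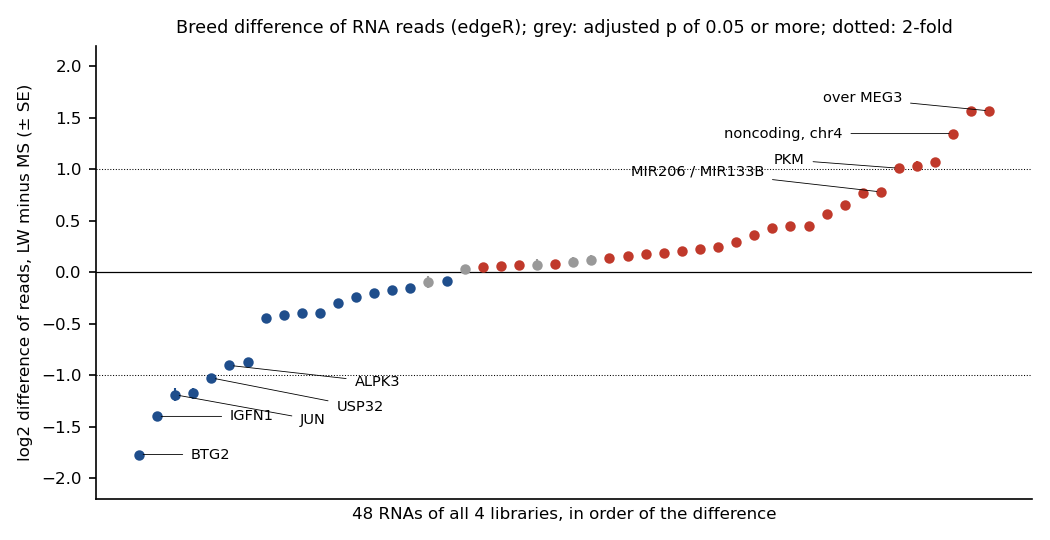
Log2 difference of RNA reads, LW minus MS, with its SE for the 48 RNAs of all 4 libraries in order of the difference; red and blue mark an adjusted p below 0.05 for LW and MS, grey the remaining 5. The values run from -1.77 at BTG2 to 1.57 over MEG3, and most lie inside the dotted 2-fold lines.

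Beyond the microRNA genes, the lowest p-values for an excess in LW belonged to a noncoding transcript at an imprinted locus, a sarcomere gene and a noncoding RNA without a symbol. ENSSSCG00000051274 (chr7:121656238-121691190, plus strand), which holds MEG3, an imprinted long noncoding RNA gene 78.7 kb from DLK1, had 21146, 23046, 6177 and 7095 reads and a log2 difference of 1.57 ± 0.021 (SE, adjusted p = 2e-06). ENSSSCG00000036538 (chr4:82125993-82147644, plus strand), over noncoding RefSeq records only, had 9202, 10339, 3134 and 3707 reads and a difference of 1.34 ± 0.022 (SE, adjusted p = 3.04e-06). ENSSSCG00000015747 (MYOM2, a protein of the sarcomere M-band) had 34849, 38603, 20231 and 23863 reads and a smaller difference of 0.57 ± 0.0081 (SE, adjusted p = 2.28e-06). In each of the 3 the lowest LW library exceeded the highest MS library. They had been named for the small p of this difference, so that order is no separate result. ENSSSCG00000001930 (PKM, the pyruvate kinase of muscle glycolysis) had 21530, 24275, 9321 and 10913 reads and a difference of 1.01 ± 0.017 (SE, adjusted p = 3.27e-06).

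The lowest p-values for an excess in MS included those of a growth-arrest gene and genes of muscle proteins. ENSSSCG00000028322 (chr9:64031855-64037769, plus strand) at BTG2, an early-response gene that restrains cell division, had 791, 902, 2328 and 2816 reads and a log2 difference of -1.77 ± 0.025 (SE, adjusted p = 2.28e-06). ENSSSCG00000036948 at IGFN1, a gene of a sarcomere-associated protein, had 2701, 2813, 5960 and 7009 reads and a difference of -1.40 ± 0.035 (SE, adjusted p = 9.3e-06). ENSSSCG00000041322 (ALPK3, a muscle kinase gene) had 11885, 12956, 19038 and 22365 reads and a difference of -0.91 ± 0.012 (SE, adjusted p = 2e-06), but its interval lies within the listed ZNF592 on the same strand. All 3 had both MS libraries above both LW libraries, which is no separate result, since they too had been named for the small p of this difference.

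ENSSSCG00000039473 at USP32, a ubiquitin protease gene, and ENSSSCG00000050768 over the long noncoding RNA LOC102161686 were the most abundant RNAs with more reads in MS. The former had 28112, 31628, 48778 and 59645 reads, a difference of -1.03 ± 0.019 (SE, adjusted p = 3.99e-06), and the latter 42953, 45778, 66925 and 77361, a difference of -0.87 ± 0.022 (SE, adjusted p = 9.54e-06). ENSSSCG00000031912 (JUN, a subunit of the transcription factor AP-1) had few reads, 635, 790, 1319 and 1574, and a difference of -1.19 ± 0.062 (SE, adjusted p = 8.27e-05). Near IGF2, the 2.61-kb ENSSSCG00000050649 (chr2:1381839-1384446, minus strand; chosen after its values were seen), which lies between MRPL23 and IGF2 and overlaps no RefSeq gene, had 7263, 7249, 13609 and 15589 reads and a difference of -1.18 ± 0.055 (SE, adjusted p = 5.61e-05). It was thus higher in MS, while the RNA at IGF2 itself, 84.7 kb away, was listed in LW only.

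Differences were smaller for several other RNAs among the 10 most abundant. ENSSSCG00000010190, listed under the identifier of ACTA1, the skeletal muscle actin gene, and reaching from ACTA1 into CCSAP, had 34235, 38013, 28416 and 33835 reads and a log2 difference of 0.046 ± 0.0077 (SE, adjusted p = 0.00478). ENSSSCG00000024481 (PDE4DIP) had 37900, 41921, 29738 and 34990 reads with a difference of 0.13 ± 0.0082 (SE, adjusted p = 0.000146), and ENSSSCG00000044874 63253, 71901, 51875 and 62720 reads with 0.069 ± 0.019 (SE, adjusted p = 0.0255). ENSSSCG00000029441 (chr12:55190430-55278539, minus strand), which spans the fast myosin heavy chain genes MYH1, MYH4 and MYH2, had 67876, 74950, 42877 and 50510 reads and a difference of 0.44 ± 0.0074 (SE, adjusted p = 3.17e-06). Reads of the 3 myosin genes, which are highly similar in sequence, cannot be separated within it. Scaled to RPM, the breeds overlapped for ENSSSCG00000010190 and ENSSSCG00000044874. The call for ENSSSCG00000044874 did not hold without LW replicate 2 (adjusted p = 0.0548) or without MS replicate 1 (adjusted p = 0.0885).

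By signal, most of these RNAs were listed mainly against their own locus. The listed signal, the authors' background-corrected contact value per 1-kb bin of DNA, was split into local (the RNA and 10 kb on each side), cis (the rest of that chromosome) and trans (other chromosomes). The median local share was 91.2%, 79.8%, 90.8% and 82.7% over the RNAs of each library, compared with 83.1% to 92.7% over all RNAs. Counted in bins rather than signal, the median local share was 38.1%, 36.5%, 42.4% and 35.8%. Over all RNAs as well, in both breeds replicate 2, which had more listed reads and more RNAs, had the lower local share. The difference in median between replicates of a breed was larger than that between breeds.

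A group of RNAs had large shares of their signal in cis in all libraries, most of it within 500 kb. ENSSSCG00000006725, at the position of the T-box gene TBX15, had 58.4, 63.6, 50.7 and 55.1% of its signal in cis, and ENSSSCG00000043851, at C14H10orf71, 57.3, 62.2, 50.5 and 56.2%. ENSSSCG00000050060 had 57.4, 60.5, 40.4 and 47.7% in cis, ENSSSCG00000042203 57.1, 63.6, 34.4 and 37.7% and ENSSSCG00000036538 72.9, 72.2, 38.0 and 41.0%. In all 5 the shares of both LW libraries lay above those of both MS libraries. ENSSSCG00000036538 and ENSSSCG00000042203 had been named for the smallest p of the share outside the local region, so their order is no separate result. That share was higher in LW for 69.5% of all 308 RNAs listed in every library. ENSSSCG00000031692, a 1.35 kb piece of JPH2 with 676, 731, 535 and 657 reads, had uneven shares of 100, 33.9, 49.5 and 43.0%, LW replicate 1 standing apart.

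**Figure D3:**
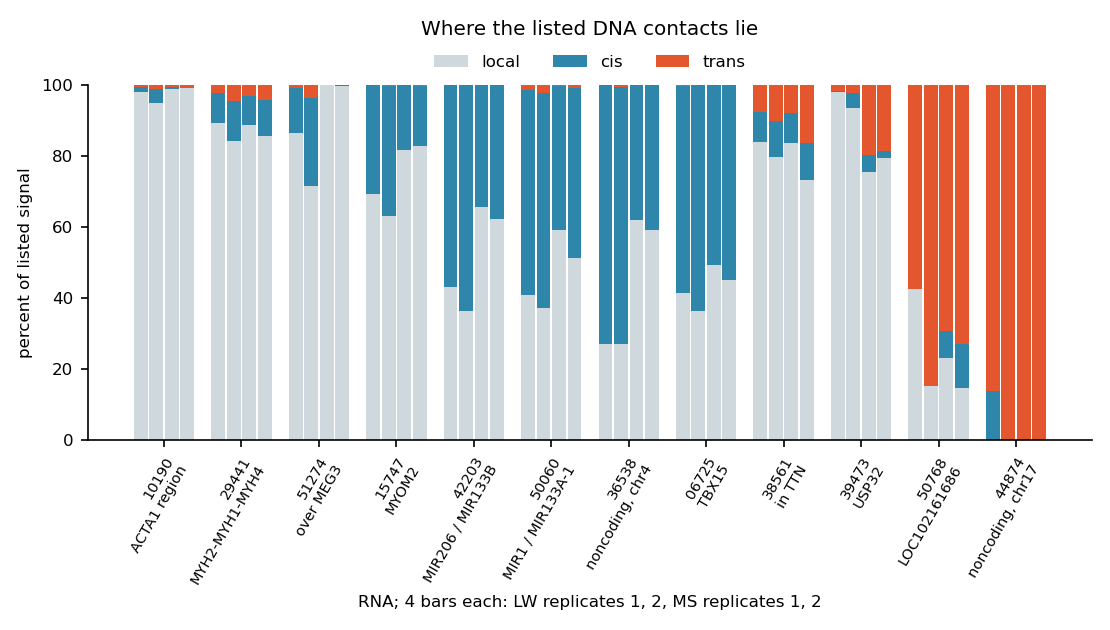
Percent of the listed signal that was local, cis or trans for 12 RNAs, with 4 bars each for LW replicates 1 and 2 and MS replicates 1 and 2. From left to right the RNAs go from mostly local shares through large cis shares (ENSSSCG00000036538, with 72.9% and 72.2% in LW, then 38.0% and 41.0% in MS) to nearly wholly trans (ENSSSCG00000044874).

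The cis signal of the RNA over MIR1 and MIR133A-1 leaned to one side. Between 100 and 500 kb upstream of its start ENSSSCG00000050060 had 17.6 and 18.3% of its signal in LW and 12.4 and 13.985% in MS, against 9.85, 10.3, 6.70 and 9.31% at the same distance downstream of its end. Bins over LAMA5, 143 kb away, held 3.58, 3.65, 2.89 and 3.20%, and those over the neighbouring SLCO4A1 2.22, 1.99, 2.37 and 2.10%. ENSSSCG00000042203 had 28.0, 28.7, 29.8 and 27.6% between 10 and 100 kb upstream, and 13.1, 14.8, 4.64 and 4.24% at that distance downstream. Between 100 and 500 kb it leaned the other way in 3 of the 4 libraries, with 5.17, 4.69, 0.009 and 0% upstream and 7.58, 12.7, 0 and 3.47% downstream. The gene body of PKHD1, 41.9 kb upstream, held 21.6, 20.5, 14.5 and 11.8% of its signal. For both RNAs the RNA's own interval held more of the signal in both MS libraries than in both LW libraries, and the stretch from 100 to 500 kb upstream more in LW.

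The noncoding ENSSSCG00000036538 reached to both sides in separate blocks. NME7, 214 kb upstream, held 16.6, 16.0, 6.59 and 6.31% of its signal, and DPT, 140 kb downstream and known as the gene of an extracellular matrix protein, 6.29, 3.57, 1.77 and 3.19%. The share over the RNA itself was 20.7, 20.7, 51.3 and 49.3%. ENSSSCG00000051274 over MEG3 stayed near its locus in MS, with 12.7, 25.0, 0.0789 and 0.285% of its signal in cis. In the LW libraries its signal at 100 to 500 kb upstream was 6.03% and 15.1%, while neither MS library had any. DLK1, nearer on that side, held 0, 0.395, 0 and 0%.

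**Figure D4:**
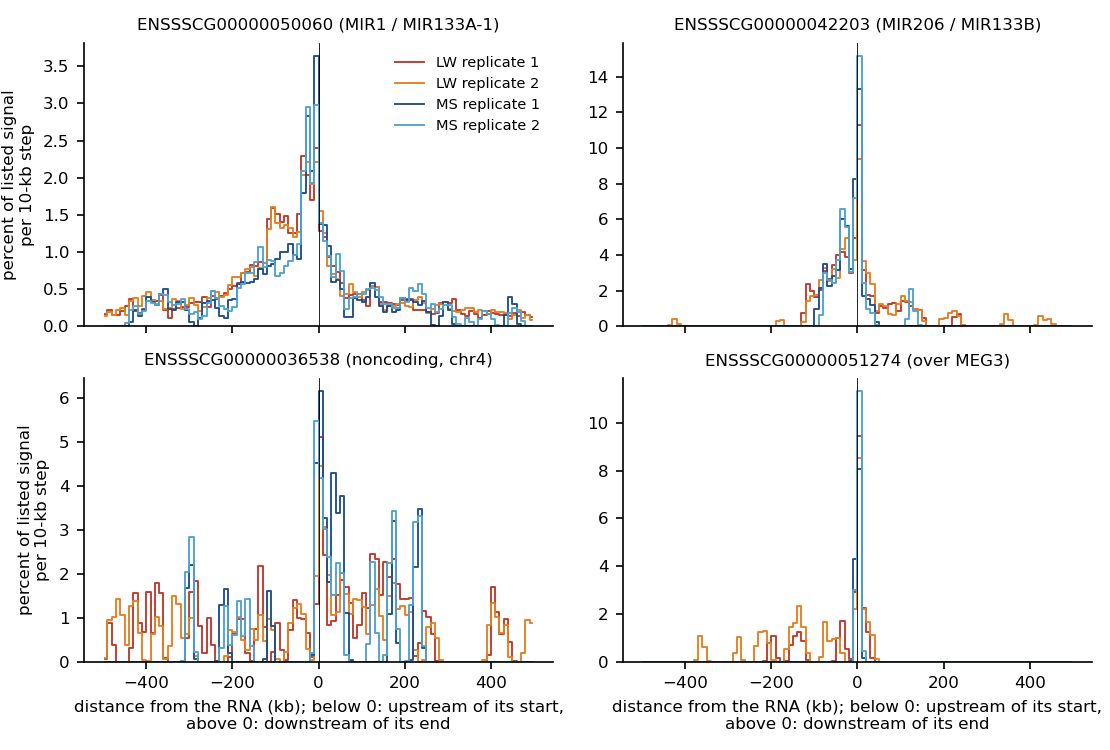
Percent of the listed signal in each 10-kb step up to 500 kb from 4 RNAs, with the RNA itself left out (0 kb is its start to the left and its end to the right) and 1 line per library. The upstream lean at MIR1 and MIR133A-1, that within 100 kb of MIR206 and MIR133B, the separate blocks around ENSSSCG00000036538 and the LW signal upstream of the MEG3 RNA can be seen.

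Other cis signal also fell on neighbouring genes. ENSSSCG00000051257, which lies in BCL6, a transcriptional repressor gene, had 20.3, 23.9, 18.9 and 21.4% of its signal over LPP, 381 kb away. ENSSSCG00000041322 had 8.54, 7.67, 7.23 and 7.63% over SLC28A1 and ENSSSCG00000043851 9.60, 7.74, 5.69 and 8.68% over the repair gene ERCC6. ENSSSCG00000024481 had 12.6, 12.6, 6.32 and 6.78% over NOTCH2, higher in both LW libraries. ENSSSCG00000004387 (FOXO3, a transcription factor of muscle atrophy genes) had 6.97, 10.0, 0.982 and 3.78% over ARMC2, 164 kb away, with MS replicate 1 lowest. These shares are of bins over whole gene bodies, so a long gene can hold more of them.

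No difference between breeds in the share outside the local region passed the test. At an adjusted p below 0.05 in limma, 0 of the 48 RNAs were called in either direction, as were 0 of all 308 (0%), and at an unadjusted p below 0.05 there were 11 of 48 and 23.7% of all 308. The smallest p belonged to ENSSSCG00000036538, whose LW libraries both had 72.9% outside, while the MS libraries had 38.0% and 41.0%, a difference of 33.4 ± 1.39 percentage points (SE, adjusted p = 0.098 in limma). The next was ENSSSCG00000042203, with a difference of 24.2 ± 3.20 percentage points (SE, adjusted p = 0.148 in limma) and no overlap between breeds. The share was higher in LW for 34 of the 48 RNAs, with a median difference of 4.38 points, and for 69.5% of all 308, with a median of 3.01 points.

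RNAs with more reads in LW mostly had the larger share outside in LW too. Across the 48 RNAs the log2 difference of reads and the difference in share had a Pearson r of 0.523 and a Spearman rho of 0.479, given as a description, since both come from the same libraries. Of the 26 RNAs with more reads in LW, 21 had the larger share outside in LW, with a median difference of 9.16 points. Of the 17 with more reads in MS, 8 had the larger share in MS, with a median difference of 0.019 points, LW minus MS. ENSSSCG00000036948 at IGFN1, one of the latter, had 1.93, 0.269, 9.73 and 13.2% of its signal in cis. The part of read number in these shares was not tested.

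Signal on other chromosomes was held by few RNAs, here as over all listed RNAs. In the 4 libraries 15.4, 14.7, 14.5 and 15.2% of these RNAs had some, and 13.3, 13.4, 12.5 and 12.3% of all RNAs. Of the 129 RNAs, 21 had any trans bin in any library, and 12, 14, 11 and 14 had one in each. One of these was ENSSSCG00000044874 (chr17:63176323-63288379, plus strand, 112 kb), which overlaps 2 small pseudogenes and lies 103 kb from PCMTD2. It had no local signal at all in any library and 86.1, 100, 100 and 100% in trans, yet its total listed signal was only 1583, 1382, 319 and 1355, compared with 89812, 90849, 79210 and 79107 for ENSSSCG00000050060. ENSSSCG00000050768 had 57.6, 84.7, 69.4 and 73.1% in trans, and 363, 986, 2207 and 3350 of signal in all. The trans shares of both RNAs thus rest on less listed signal than that RNA had.

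Of RNAs with mostly local signal, ENSSSCG00000038561 in TTN had 7.82, 10.4, 7.91 and 16.5% in trans, and ENSSSCG00000044913 1.60, 1.92, 2.73 and 10.6%, MS replicate 2 standing above the other libraries in both. ENSSSCG00000039473 at USP32 had 1.96, 2.34, 19.8 and 18.6%, both MS libraries lying above both LW libraries, in the direction of its reads. Trans bins came in 564 runs of neighbouring bins with a median of 23 bins, the shortest of 22 and the longest of 42 bins. The 1285 runs on the same chromosome beyond 10 kb had the same shortest length of 22 bins, with a median of 29. Only 20 of the trans runs, in 10 pairs, overlapped a run of the same RNA in another library. One pair, of ENSSSCG00000039473 in both MS libraries, lay at chr17:63373001-63398000 and chr17:63374001-63397000. For most trans contacts of these RNAs, therefore, no second library listed the same place.

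H3K27ac loops were found at the ends of most of these RNAs. A loop with an anchor within 1 kb of an end was called in some library for 113 of the 129 (87.6%) and for 1019 of all 1122 RNAs (90.8%). In single libraries 105, 100, 100 and 94 of the 129 had one. Loops lay more often at the start than at the end: 91, 90, 88 and 90 RNAs had one at the 5′ end and 78, 54, 67 and 48 at the 3′ end. Over all 1122 RNAs it was likewise 828, 784, 809 and 746 at the 5′ end and 633, 499, 546 and 429 at the 3′ end. Of 1368 loops over all libraries, with a median span of 80 kb and a largest of 1505 kb, 89 were called in all 4 libraries and 841 in 1. For 51 RNAs at least 1 loop was called with the same anchors in all 4 libraries.

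The 3 RNAs with the most loops, at 74, 62 and 50 distinct loops over the libraries, lay at genes of transcription factors. ENSSSCG00000031912 (JUN) had 26, 31, 32 and 26 loops, of which 3 were shared by all libraries, the furthest to an anchor 855 kb away that lies in FGGY. ENSSSCG00000051257 in BCL6 had 19, 26, 24 and 24 loops and ENSSSCG00000004387 (FOXO3) 21, 28, 18 and 24. ENSSSCG00000003839 (PLPP3, a lipid phosphatase gene) had 8, 23, 13 and 14, or 35 distinct loops. The breeds overlapped in loop number in all 4. PLPP3 RNA was listed in MS replicate 2 only, although loops were present there in every library.

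**Figure D5:**
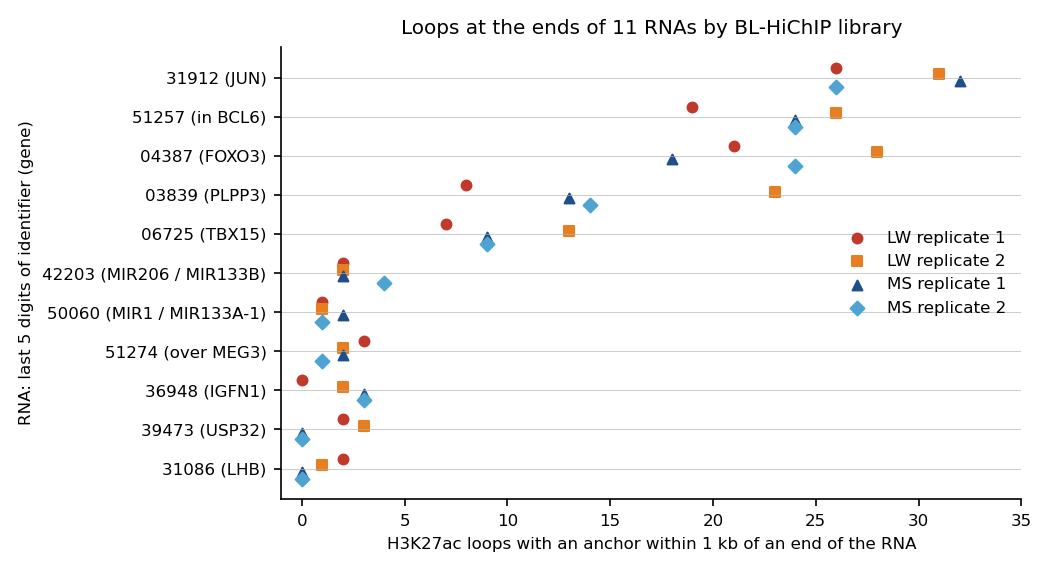
Number of H3K27ac loops with an anchor within 1 kb of an end of 11 RNAs, 1 point per BL-HiChIP library, shifted in height so that equal values can be seen. JUN, BCL6 and FOXO3 have 18 or more loops in each library. For ENSSSCG00000039473 (USP32) and ENSSSCG00000031086 (LHB) only the LW libraries have any.

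The RNAs over MIR1 and over MIR206 had few loops, some of them called in every library. ENSSSCG00000050060 had 1, 1, 2 and 1, and a short loop of 5 kb inside it recurred in every library (−log10 FDR from 20.01 to 39.2). ENSSSCG00000042203 had 2, 2, 2 and 4, of which a loop of 25 kb upstream recurred in every library (from 38.2 to 80.8). The RNA over MEG3 had 3, 2, 2 and 1 loops, and a loop of 150 kb upstream recurred in every library, at 8.64 and 10.1 for LW against 3.69 and 2.58 for MS. That loop points to the side on which the MEG3 RNA signal extended in LW. At IGF2, loops were called in LW replicate 2 only (0, 3, 0 and 0), 1 of them to the anchor with an end of TNNT3, the fast troponin T gene.

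No breed difference in loops passed the test either. Loops at the ends of an RNA were summed as −log10 FDR, and the quantile-normalized sums were compared as log2(sum + 1) in limma over 1019 RNAs. At an adjusted p below 0.05, 0 of the 113 RNAs tested here and 0 of all 1019 (0%) were called in either direction, and at an unadjusted p below 0.05 there were 8 of 113 and 4.51% of all. The smallest p was that of ENSSSCG00000039473 at USP32, with sums of 13.2, 18.0, 0 and 0 before normalization and a log2 difference of 3.47 ± 0.60 (SE, adjusted p = 0.344 in limma). Its loops were called in LW only, whereas its RNA reads were higher in MS. ENSSSCG00000031086, over LHB, a pituitary hormone gene, was next, with sums of 13.5, 6.24, 0 and 0 and a difference of 2.89 ± 0.64 (SE, adjusted p = 0.825 in limma), its loops reaching the anchors with ends of GYS1 and RUVBL2. Its RNA was listed in LW replicate 2 only, with 450 reads. ENSSSCG00000044760, which contains it on the same strand and covers all of LHB, had loops in MS too. Its mean sums before normalization were 10.2 in LW and 3.17 in MS.

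At IGFN1 the loop sums differed in the direction of the reads, without passing the test. ENSSSCG00000036948 had 0, 2, 3 and 3 loops with sums of 40.3 and 52.7 in MS, above those of both LW libraries, and a loop of 20 kb was called in both MS libraries and in neither LW library. The difference was -3.93 ± 1.23 (SE, adjusted p = 0.965 in limma). Without LW replicate 2 it was called, at -5.57 (adjusted p = 0.00224 in limma), as was ENSSSCG00000007369 at JPH2 at 4.75 (adjusted p = 0.0181 in limma), compared with 3.17 (adjusted p = 1 in limma) with all libraries. LW was then 1 library, taken to vary like those of MS.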

How the data were processed

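GRID-seq and H3K27ac BL-HiChIP libraries of longissimus muscle, 2 of each per breed (LW and MS), were analysed. Per the labels and the study's methods, GRID-seq pairs were aligned to Sscrofa11.1 with Bowtie2 2.2.5 and ambiguous pairs were removed with SAMtools 1.9, after Trim Galore 0.4.5. The authors deposited, for each listed RNA, its interval, strand and count of RNA reads, and a background-corrected contact signal in each 1-kb bin of DNA from 0.02 upwards. For BL-HiChIP the authors deposited loops between 5-kb bins with an FDR (adjusted p-value) below 0.01. The GRID-seq lists carry no header, and these readings of their columns come from the methods and the values. Listed RNA reads were 8181721, 9943666, 7172517 and 9381797, and loops 57028, 43282, 45061 and 33353, in LW replicates 1 and 2 and MS replicates 1 and 2. Since the lists hold only RNAs that the authors kept, these totals are not sequencing depth.

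Read counts were tested with edgeR 4.0.16 (quasi-likelihood, TMM, R 4.3.3) on the 308 RNAs in all 4 libraries. Shares outside the local region (percentage points) and loop sums (log2 of the sum plus 1 after quantile normalization, −log10 FDR capped at 300) were tested with limma 3.58.1. Benjamini-Hochberg adjustment covered all RNAs tested, and DESeq2 1.42.0 was an alternative. With 2 libraries against 2, an exact permutation test cannot go below p = 0.333. The scripts were tested on simulated data. Symbols came from a table of gene names and positions from RefSeq (Sscrofa11.1), whose records carried 0 Ensembl identifiers.

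RNAs were named by a rule: the 10 with the highest mean RPM in all 4 libraries, the 5 with the largest outside and trans shares, up to 5 per direction by p in each test or otherwise the 2 of smallest p, the 5 with most loops, up to 5 per breed listed in that breed only, and the 8 with a symbol and most reads (the rule had asked for RefSeq matches, of which there were none). The RNAs and lists were chosen with earlier results of these data known. Sequences and promoters were not analysed here. An RNA that the rule named, and some neighbouring genes, are not reported here.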

Additional observations from a re-analysis of the deposited data

How the results depend on the processing

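Without TMM, 15 RNAs were higher in LW and 10 in MS, in place of 26 and 17, and when tested against a 1.5-fold difference (glmTreat, added after seeing the data) 8 and 7. DESeq2, RNAs in at least 3 libraries with missing values as 0, and leaving out TTN and ENSSSCG00000044834 gave 26, 20 and 25 in LW and 17, 16 and 17 in MS. Leaving out each library gave 25 to 27 and 16 to 17. The replicate numbers mark no stated animal or batch and give only 2 pairs; with a replicate block the counts were 27 and 17, with 0 calls for shares and loops. Replicate differences of the breeds correlated at 0.939 (reads), 0.190 (share outside) and 0.489 (loop sums).

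No RNA passed for the share outside under any setting, and for loops none did except without LW replicate 2 (0 to 1 per direction on leaving out a library). Of the named RNAs with a read test, 13 of 23 kept direction and call throughout and none reversed. The share outside reversed for ENSSSCG00000028322 (-0.48) and ENSSSCG00000041322 (-2.65) with bins counted in place of signal, and for ENSSSCG00000050768 without LW replicate 1 (-23.5 to 3.64 on leaving out each library); the loop difference of ENSSSCG00000007369 reversed (-0.32) with a 5-kb window. The cause was not tested. The breed means of the median local share, 85.5% in LW and 86.7% in MS, became 37.3% and 39.1% of bins, 97.4% and 95.8% with a 50-kb local region, and 74.6% and 80.8% for RNAs in all 4 libraries, and ranged over 79.8% to 91.2% and 82.7% to 90.8% on leaving out a library. The 129 RNAs became 96 when both libraries of a breed were required, and 116 to 127 on leaving out a library. The 113 with a loop became 84 to 120.

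With 2 libraries per breed, differences in shares and loops of the size of the spread between replicates could not be shown.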

Other observations

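Several of the RNAs named by identifier are pieces of long muscle genes (chosen by position after their values were seen). Within TTN, besides ENSSSCG00000038561, ENSSSCG00000042430 (2.63 kb) had 21085, 23069, 15734 and 18941 reads and ENSSSCG00000034677 (5.31 kb, nested in ENSSSCG00000038561) 23179, 25941, 17062 and 20311. Per kb these were 8005, 8758, 5973 and 7191 and 4367, 4887, 3214 and 3826 reads. Their log2 differences, 0.18 ± 0.011 (SE, adjusted p = 0.000138) and 0.23 ± 0.011 (SE, adjusted p = 7.58e-05) in edgeR, lay close to that of ENSSSCG00000038561, 0.17 ± 0.0075 (SE, adjusted p = 4.77e-05) in edgeR, and all 3 share their strand with the listed TTN. Within RYR1, the gene of the calcium release channel, ENSSSCG00000042985 had 4105, 4661, 3127 and 3870 reads, and ENSSSCG00000046809 had 1501, 1555 and 1143 in LW replicates 1 and 2 and MS replicate 2. RYR1 was not listed by its symbol.

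At JPH2, whose protein ties the sarcoplasmic reticulum to the T-tubule, ENSSSCG00000007369 (46.4 kb) had 8965, 9824, 6260 and 7397 reads, of which the log2 difference was 0.29 ± 0.016 (SE, adjusted p = 0.000102) in edgeR, and 4, 3, 1 and 0 loops. At COL4A1, a basement membrane collagen gene, ENSSSCG00000044051 had 11854, 13280 and 7468 reads in LW replicates 1 and 2 and MS replicate 2, and ENSSSCG00000044700 had 2815 and 3066 in the LW libraries only. These 2 lie one after the other on the minus strand, and the second had no loop in any library while the first had 3, 5, 5 and 9.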
